A study of Mus musculus with 24 samples.

Results

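The complement components and receptors described here are 9 genes, chosen by name among the 29742 named genes on the arrays. They were chosen with earlier results of these data known, so counts among them are descriptions and not a test of the set. All 9 passed the filter on dim signals and were among the 17802 genes tested. They are the 3 chains of C1q (*C1qa*, *C1qb* and *C1qc*), the plasma components *C3*, *C4b* and *Cfb*, properdin (*Cfp*), and the receptors *C3ar1* and *C5ar1*. RNA of whole blood from male C57BL/6J mice, with globin RNA reduced before labelling, was measured on 24 single-colour Agilent arrays, with 1 mouse per array. Young mice were 2 months old and old mice 21 months old. In each age, 6 mice were unirradiated and 6 received 4 Gy of x-rays to the whole body, and blood was taken 24 h later. A level is the log2 signal minus the median of its array, so 1 unit is a doubling, and levels are compared between mice for the same probe and not between genes.

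Complement is a cascade of blood proteins that marks microbes and dying cells for removal. The classical pathway starts when C1q binds a surface and its partner proteases cleave C4, the alternative pathway is built on C3, factor B and properdin, and both lead to cleavage of C3 and C5, whose small fragments act on receptors of myeloid cells. Most complement proteins of plasma are made by hepatocytes, whereas C1q is made mainly by tissue macrophages and dendritic cells and properdin by myeloid cells.

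Several arrays stood apart from the others of their group. Old irradiated replicates 4 and 6 had the lowest median signals, 8.66 and 8.84, where the 24 arrays ran up to 44.8. Their erythroid marker lists stood at 1.91 and 1.95 above the median of young unirradiated mice, where the other 4 old irradiated arrays were at -1.59 to -2.63; the part of this in their levels was not tested. Their median absolute difference from the other 4 old irradiated arrays was 1.46 to 1.68 log2 units over 13701 probes, against 0.36 to 0.78 among those 4. In another set of 6 irradiated arrays, young replicates 2, 4 and 5 and old replicates 2, 3 and 5, the mean level of 20 hepatocyte markers was 6.42 to 7.93 above the median of young unirradiated mice. The other 6 irradiated arrays lay between -1.85 and 0.98 on that scale, and young unirradiated replicate 5 was the next highest at 3.88. Results below are given with and without these arrays where they change. All young arrays were scanned on 1 day and all old arrays on another, so scan day and age cannot be told apart.

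Hepatocyte markers were read as a list of 20 genes, all 20 of which were well above background in at least 3 arrays. *Hp* (haptoglobin) gave the strongest mean signal of the list, which does not rank the transcripts, and it was well above background in all 24 arrays, with *Apoa2*, *Fgb*, *Cyp2e1* and *Tat*. *Alb*, *Ahsg* and *Ttr*, which define hepatocytes, were well above background in 0 of 6 old unirradiated mice. The number of these markers well above background was 5 to 7 in old unirradiated mice and 20 in each of the 6 irradiated arrays with high levels, but it was also 20 in young unirradiated replicates 3 and 5, 19 in replicate 4, and 16 in old irradiated replicates 4 and 6. The summed signal of the list, relative to the array median, was 517, 24068, 591, 52296, 26212 and 548 in young irradiated replicates 1 to 6, and 4158, 21710, 24319, 721, 31047 and 677 in old irradiated replicates 1 to 6. It was 280 to 3411 in young and 570 to 1977 in old unirradiated mice. Such a sum is weighted to the strongest signals and does not stand for the list as a whole. In old unirradiated mice *Hp* alone had a median log2 level of 9.62. The mean level of the list there was -2.99 to -2.42 relative to young unirradiated mice. Old irradiated replicate 1, with a sum of 4158, had a mean list level of -1.85 on that scale.

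Tissue macrophage markers were read as a list of 18 genes, of which 17 were well above background in at least 3 arrays. *Cd163* was well above background in 0 of 24 arrays. *Adgre1*, which encodes the F4/80 antigen, gave the strongest mean signal here. The mean level of the list was 1.97 to 3.56 in the 6 young irradiated arrays and at most 1.12 in young unirradiated mice, so these groups did not overlap. In old irradiated mice it was 2.76 to 3.41 in replicates 2, 3 and 5 and 0.10 to 0.64 in replicates 1, 4 and 6, within the range of old unirradiated mice (-0.26 to 1.94). Its summed signal was 590 to 2116 in young irradiated, 56.3 to 258 in young unirradiated, 98.6 to 300 in old unirradiated and 86.1 to 1541 in old irradiated mice. The part of either cell type in the levels of the complement genes was not tested.

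**Figure D1:**
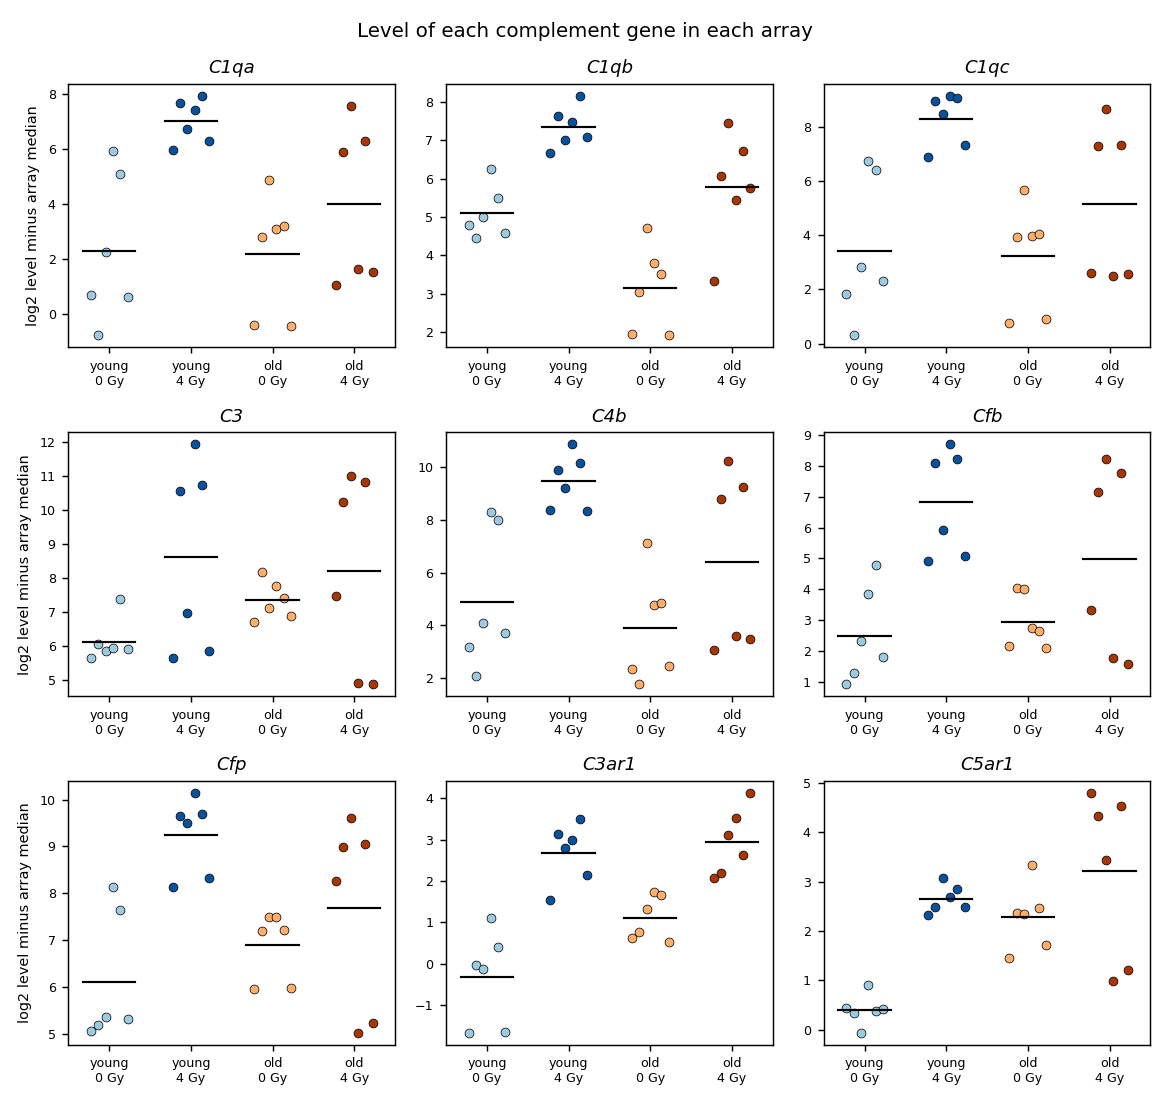
Level of each of the 9 complement genes in each of the 24 arrays, on the log2 scale relative to the array median, with a horizontal line at each group mean of 6 mice. In old irradiated mice most genes split into high arrays (replicates 2, 3 and 5) and low arrays, as for *C1qa* at 5.88 to 7.56 against 1.06 to 1.65.

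The question of the following comparison is how blood of young mice differed 24 h after 4 Gy. Of the 9 complement genes, 8 rose in young irradiated mice and 0 fell, where 14.3% of all genes tested rose and 21.1% fell; a gene is said to rise or fall at limma p below 0.005 and Benjamini-Hochberg adjusted p below 0.05 over all genes tested. For all 8, the lowest irradiated mouse exceeded the highest unirradiated mouse, which held for 9.45% of all genes. *C3* was the exception. The median change of the 9 was 3.12, against -0.20 for all genes.

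The C1q chains form the recognition molecule of the classical pathway, and each molecule needs all 3 of them. *C1qa* (probe A_51_P181451) had levels of -0.76 to 5.91 with a median of 1.49 in young unirradiated mice, and of 5.97 to 7.93 with a median of 7.05 in young irradiated mice. The 6 irradiated mice lay close together, while unirradiated replicates 4 and 5 reached 5.91 and 5.07, just under the lowest irradiated mouse. *C1qa* rose by 4.69 (SE 0.997, n = 6 per group, limma adjusted p = 0.00204). In bulk blood, more cells that carry a transcript and more of it per cell cannot be told apart.

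*C1qc* (A_51_P102789) followed nearly the same order of mice, rising by 4.91 (SE 0.996, limma adjusted p = 0.00149). *C1qb* (A_51_P351860) had levels of 4.45 to 6.25 with a median of 4.89 in unirradiated and of 6.67 to 8.17 with a median of 7.28 in irradiated young mice. Its spread in unirradiated mice was narrower than that of the other chains (SD 0.68, against 2.66 for *C1qa* and 2.60 for *C1qc*). *C1qb* rose by 2.25 (SE 0.32, limma adjusted p = 0.000152).

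*C1qa*, *C1qb* and *C1qc* lie side by side on mouse chromosome 4, and the upstream sequences available for them are shown. The RefSeq table of promoters (GRCm38.p6) held 6 of the 9 genes, without *C1qa*, *C4b* and *Cfb*. Printed 5′ to 3′ on the minus strand are the bases outside the annotated gene at chr4:136886201-136886450 for *C1qb* and chr4:136892937-136893164 for *C1qc*, together with those of *C3* at chr17:57228137-57228386 and *Cfp* at chrX:20931556-20931805 as components made mainly by liver and by myeloid cells. Capitals mark matches to any of 5 motifs searched on both strands in the 250 bases upstream.
C1qb: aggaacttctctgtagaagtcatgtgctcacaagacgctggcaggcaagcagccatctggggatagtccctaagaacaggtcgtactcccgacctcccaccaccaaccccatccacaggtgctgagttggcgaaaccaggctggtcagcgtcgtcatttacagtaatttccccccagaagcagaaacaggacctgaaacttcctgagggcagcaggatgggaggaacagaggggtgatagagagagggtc
C1qc: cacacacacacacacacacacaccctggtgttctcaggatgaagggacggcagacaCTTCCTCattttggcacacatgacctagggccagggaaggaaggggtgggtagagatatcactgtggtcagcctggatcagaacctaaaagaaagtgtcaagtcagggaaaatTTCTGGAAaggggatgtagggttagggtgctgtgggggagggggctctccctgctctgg
C3: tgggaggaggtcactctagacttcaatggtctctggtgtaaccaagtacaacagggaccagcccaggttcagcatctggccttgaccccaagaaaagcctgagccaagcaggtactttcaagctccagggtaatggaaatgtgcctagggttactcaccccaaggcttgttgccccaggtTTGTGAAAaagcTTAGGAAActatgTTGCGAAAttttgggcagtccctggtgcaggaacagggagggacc
Cfp: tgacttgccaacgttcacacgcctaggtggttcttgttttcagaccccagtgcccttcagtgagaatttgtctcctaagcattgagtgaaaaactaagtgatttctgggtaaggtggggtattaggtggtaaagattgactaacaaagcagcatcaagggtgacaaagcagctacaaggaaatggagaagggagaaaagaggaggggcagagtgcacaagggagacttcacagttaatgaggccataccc

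The motifs were GAGGAAG (PU.1 core), TTNNGNAA (C/EBP), TTCNNNGAA (STAT), GGGANTTTC (NF-kB) and GAAANNGAA (interferon-stimulated response element). Among 32841 promoters, 10.6%, 36.9%, 7.02%, 0.941% and 7.13% held them, in that order. *C1qc* held 1 PU.1 and 1 C/EBP match, *C3* held 3 C/EBP matches close together, and *C5ar1* held 1 C/EBP and 1 interferon-stimulated response element match, in the part of its window inside the annotated gene and not in the 48 bases outside it. *C1qb*, *Cfp* and *C3ar1* held 0 matches in this window. The matches are given as letters found, and binding was not measured.

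*C3* is the protein on which all pathways converge. Its levels were 5.63 to 7.38 with a median of 5.91 in young unirradiated mice, and 5.63 to 11.93 with a median of 8.76 in young irradiated mice (probe A_51_P110301). Irradiated replicates 2, 4 and 5, the arrays with high hepatocyte markers, were at 10.55, 11.93 and 10.73, and replicates 1, 3 and 6 were at 5.63, 6.97 and 5.84, within or below the unirradiated range. The difference in means was 2.49 (SE 1.02, limma adjusted p = 0.0624) and did not pass. Another *C3* probe (A_55_P2038525) gave 2.32 (limma adjusted p = 0.0536). Without the 3 young irradiated arrays high in hepatocyte markers, the *C3* difference was 0.02 (SE 0.40).

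*C4b*, whose product C4 is cleaved after C1q binds, was highest in the same irradiated replicates 2, 4 and 5, at 9.90, 10.86 and 10.15, but replicates 1, 3 and 6, at 8.39, 9.21 and 8.34, also lay above the unirradiated range. Its levels were 2.07 to 8.32 with a median of 3.89 in young unirradiated mice and 8.34 to 10.86 with a median of 9.56 in young irradiated mice (probe A_55_P2078633). Unirradiated replicates 4 and 5 were again the high ones, at 8.32 and 8.01, just under the lowest irradiated mouse. *C4b* rose by 4.59 (SE 1.01, limma adjusted p = 0.00257). The probe may also bind RNA of the closely related gene *C4a*, which the arrays did not list by name, and this was not tested.

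*Cfb*, the protease of the alternative pathway convertase, had levels of 0.94 to 4.80 with a median of 2.05 in young unirradiated and of 4.90 to 8.69 with a median of 6.998 in young irradiated mice (A_51_P413866). It was above the unirradiated range in all 6 irradiated mice and highest in replicates 2, 4 and 5 (8.09, 8.69 and 8.22). *Cfb* rose by 4.32 (SE 0.82, limma adjusted p = 0.000985). *Cfp* encodes properdin, which stabilises that convertase, and it rose by 3.12 (SE 0.58, limma adjusted p = 0.000858; A_51_P408363). Its levels were 5.06 to 8.13 with a median of 5.34 and 8.14 to 10.13 with a median of 9.57, so that unirradiated replicate 4 at 8.13 nearly met irradiated replicate 1 at 8.14.

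*C5ar1*, the receptor through which C5a draws and activates neutrophils and monocytes, had levels of -0.06 to 0.91 with a median of 0.40 in young unirradiated and of 2.32 to 3.06 with a median of 2.58 in young irradiated mice (A_55_P2017681). The groups were far apart compared with their SDs of 0.31 and 0.27. *C5ar1* rose by 2.24 (SE 0.18, limma adjusted p = 2.68e-06). *C3ar1*, the receptor of C3a, rose by 3.01 (SE 0.49, limma adjusted p = 0.000324; A_51_P282557), from levels of -1.67 to 1.11 (median -0.07) to levels of 1.54 to 3.496 (median 2.89). It was well above background in 4 of 6 young unirradiated and 6 of 6 young irradiated mice, and *C1qa* in 5 of 6 and 6 of 6, so the sizes of these rises rest in part on signals near background. With normexp background correction the rises were 1.17 for *C5ar1* and 1.18 for *C3ar1*, and both passed.

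Marker lists were read in the same comparison, where 14.3% of all genes rose and 21.1% fell. Of 14 tested tissue macrophage markers, 11 rose in young irradiated mice and 0 fell (median change 2.34), among them *Cd5l* by 5.43, *Adgre1* by 2.75 and *Slc40a1* by 1.99. Of 12 tested hepatocyte markers, 2 rose (*Hp* by 2.85 and *Tat* by 1.85) and 0 fell (median 2.90, with 12 of 12 above 0). That count of 2 is near the share of all genes. Of 11 blood monocyte markers 3 rose and 1 fell, and of 12 neutrophil markers 5 rose and 0 fell. Their part in the rise of the complement genes was not tested. Without the 3 young irradiated arrays high in hepatocyte markers, 4 complement genes rose in place of 8, where 14.3% of all genes rose and 18.6% fell. Those 4 were *C1qb*, *Cfb*, *C3ar1* and *C5ar1*. *C1qa* (4.02, limma adjusted p = 0.0306), *C1qc* (4.17, 0.0252), *C4b* (3.76, 0.0386) and *Cfp* (2.53, 0.0168) had the same direction and did not pass, with 3 irradiated mice in the group. When young unirradiated replicate 5 was left out as well, 8 rose, where 14.4% of all genes rose and 20.5% fell. That array was the highest unirradiated one after replicate 4 in *C1qa*, *C1qc*, *C4b* and *Cfp* (5.07, 6.42, 8.01 and 7.64). Leaving it out raises these 4 differences by construction, so nothing is read from the genes regained. On the slide that held both treatments, with 2 mice in each, all 9 differences were above 0, from 1.45 for *C3* to 3.96 for *C1qa*. The irradiated mice there were replicates 1 and 2, and replicate 2 is among the arrays high in hepatocyte markers. *C3* was at 10.55 in replicate 2 and at 5.63 in replicate 1.

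**Figure D2:**
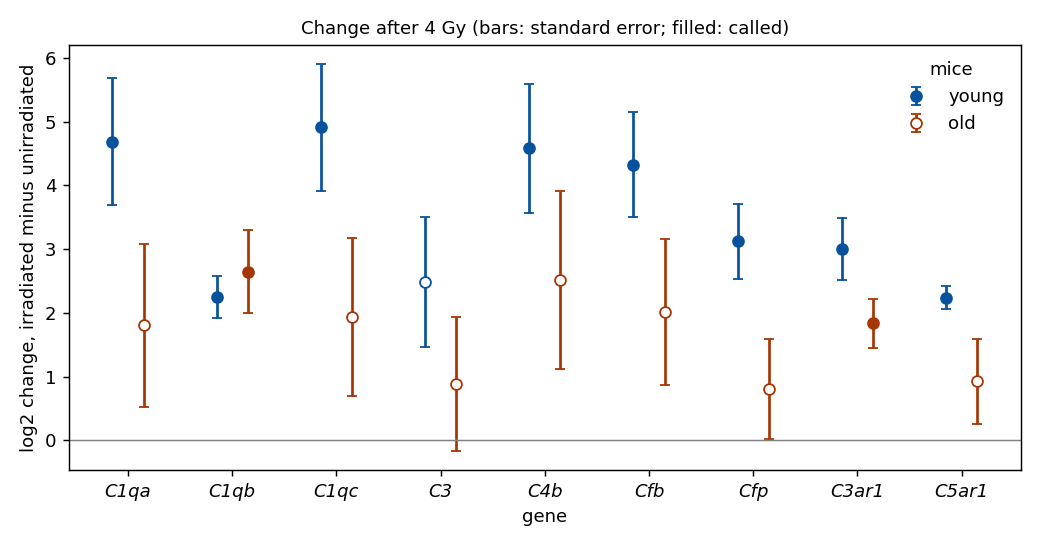
Log2 change of each complement gene, irradiated minus unirradiated, in young and old mice, with bars of 1 standard error from limma and filled points for genes that passed the test. In young mice all but *C3* passed, and in old mice *C1qb* (2.64) and *C3ar1* (1.83) passed.

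In old mice the same question was asked of the 6 irradiated and 6 unirradiated animals. Of the 9 complement genes 2 rose, *C1qb* and *C3ar1*, and 0 fell, where 7.49% of all genes rose and 17.4% fell. *C3ar1* was the gene whose groups did not overlap, which held for 5.83% of all genes. The median change of the 9 was 1.83, against -0.25 for all genes.

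*C1qb* had levels of 1.92 to 4.70 with a median of 3.27 in old unirradiated and of 3.34 to 7.45 with a median of 5.91 in old irradiated mice. Irradiated replicate 1, at 3.34, lay inside the unirradiated range and the other 5 irradiated mice lay above it. *C1qb* rose by 2.64 (SE 0.65, limma adjusted p = 0.00823). *C3ar1* had levels of 0.53 to 1.73 with a median of 1.04 and of 2.08 to 4.12 with a median of 2.87, and rose by 1.83 (SE 0.38, limma adjusted p = 0.00373). Its highest mice were irradiated replicates 6 and 4, at 4.12 and 3.52.

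*C1qa* had levels of -0.44 to 4.88 with a median of 2.95 in old unirradiated and of 1.06 to 7.56 with a median of 3.76 in old irradiated mice. Irradiated replicates 2, 3 and 5 were at 5.88, 7.56 and 6.29, above every unirradiated mouse, and replicates 1, 4 and 6 were at 1.06, 1.65 and 1.55, within that range. The difference was 1.81 (SE 1.28, limma adjusted p = 0.289) and did not pass. *C1qc* and *C4b* split along the same arrays, with differences of 1.94 (SE 1.24, limma adjusted p = 0.243) and 2.52 (SE 1.40, limma adjusted p = 0.179). In *C1qb* the same 3 arrays were highest, but replicates 4 and 6, at 5.45 and 5.75, were close behind.

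*C3* had levels of 6.69 to 8.18 with a median of 7.26 in old unirradiated and of 4.88 to 10.99 with a median of 8.85 in old irradiated mice. Replicates 2, 3 and 5 were at 10.23, 10.99 and 10.83, above the unirradiated mice, replicate 1 at 7.48 lay among them, and replicates 4 and 6 at 4.89 and 4.88 lay below all of them. The difference was 0.88 (SE 1.05, limma adjusted p = 0.530). *Cfb* (2.02, SE 1.14), *Cfp* (0.81, SE 0.78) and *C5ar1* (0.93, SE 0.67) also had both their lowest old irradiated values in replicates 4 and 6 and did not pass, with limma adjusted p of 0.188, 0.439 and 0.294.

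Of 12 tested hepatocyte markers, 10 rose in old irradiated mice and 0 fell, and of 14 tissue macrophage markers 1 rose (*Siglec1*) and 1 fell (*Spic*). The hepatocyte list was high in the same replicates 2, 3 and 5 that were highest in *C1qa*, *C1qc*, *C3*, *C4b* and *Cfb*. The part of the markers in these differences was not tested. Without replicates 4 and 6, where 11.7% of all genes rose and 22.7% fell, 6 complement genes rose: *C1qb*, *C3ar1*, *C3* by 2.55, *Cfb* by 3.67, *Cfp* by 2.09 and *C5ar1* by 1.99 (limma adjusted p = 0.00571, 0.00466, 0.00152 and 0.00154 for the last 4). The 4 genes gained had their lowest old irradiated values in the arrays left out, so they move up by construction. Without replicates 2, 3 and 5, *C3ar1* rose by 2.13 (limma adjusted p = 0.00370), *C1qb* differed by 1.69 (limma adjusted p = 0.0552), and 6 genes lay below their unirradiated mean: *C1qa* (-0.78), *C1qc* (-0.67), *C3* (-1.59), *C4b* (-0.52), *Cfb* (-0.73) and *Cfp* (-0.72), with 0 of these 6 passing. Those 3 arrays are also the highest in most members, so leaving them out lowers the members by construction. With array weights 8 of the 9 rose, where 15.0% of all genes rose and 29.9% fell, and with normexp background correction 0 did, where 8 of all genes passed. On the slide that held both treatments, with 2 old mice in each, the 9 differences ran from 1.04 for *C3ar1* to 2.87 for *Cfb*. The irradiated mice there were replicates 1 and 2, with *C1qa* at 1.06 and 5.88, and replicate 2 is among the arrays high in hepatocyte markers. The unirradiated mice were replicates 5 and 6, with *C1qa* at 3.21 and -0.44. With 1 high array in the irradiated pair, nothing is read from the common direction.

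**Figure D3:**
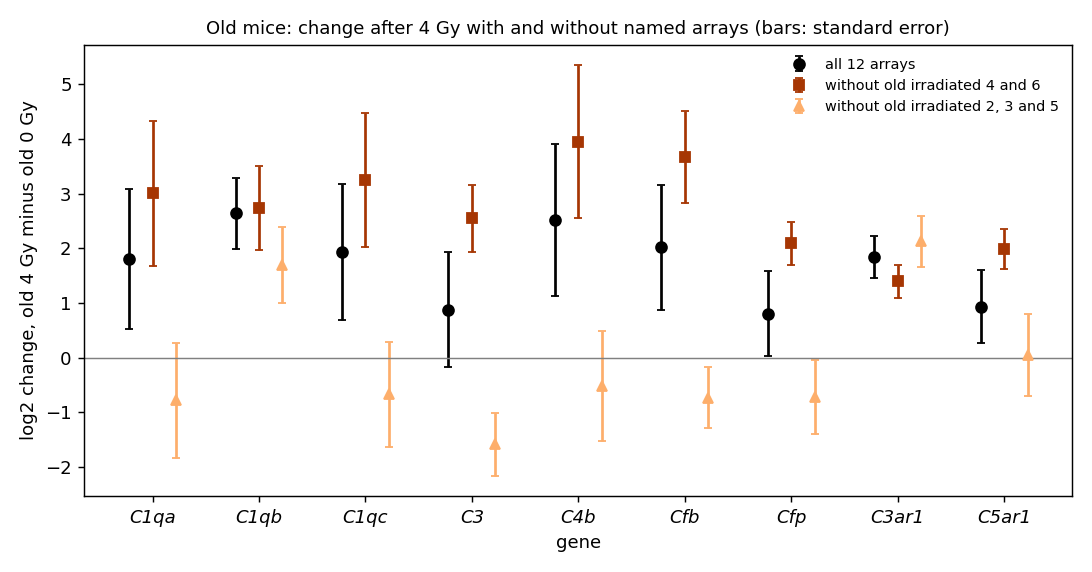
Log2 change of each complement gene in old mice, irradiated minus unirradiated, with bars of 1 standard error, for all 12 arrays, without old irradiated replicates 4 and 6, and without old irradiated replicates 2, 3 and 5. *C1qb* and *C3ar1* are above 0 in all 3 settings, and *C3* runs from 2.55 to -1.59.

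The difference between the ages in the response to irradiation was tested in a fit of all 24 arrays and passed for 0 of the 9 complement genes and for 0 of all genes tested (0%), although 4191 of the 17802 genes had an unadjusted p under 0.05. Of all genes, other limma settings called 206 with array weights, 32 with slide as a random block and 7 to 9 with 3 other scalings. They called 0 with trend and robust variance, 0 after normexp background correction and 1050 without old irradiated replicate 3. In each of these settings 0 of the 9 complement genes passed. Among complement genes beyond these 9, 1 passed above 0 and 1 below 0 with array weights. The interaction estimates were below 0 for 8 of the 9 genes, from -2.97 for *C1qc* (SE 1.68, limma adjusted p = 0.268) to -1.17 for *C3ar1* (SE 0.64, limma adjusted p = 0.253), with -2.32 for *Cfp* (SE 1.02, limma adjusted p = 0.183). *C1qb* was the exception at 0.39 (SE 0.76, limma adjusted p = 0.746). So the larger number of genes passing in young mice is not shown to be a difference between the ages. Without the 6 irradiated arrays high in hepatocyte markers, *Cfb* passed (-3.53, limma adjusted p = 0.0175). With young unirradiated replicate 5 also left out 3 genes passed, *Cfb*, *C1qc* and *Cfp*. That array was high among young unirradiated mice in these 3 genes, so leaving it out moves their estimates down by construction. These settings hold as few as 3 irradiated mice per age, the dim old replicates 4 and 6 among them, and 3655 and 3238 of all genes passed in them.

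Between unirradiated old and young mice, 2 complement genes were higher in old mice and 1 was lower, where 48.4% of all genes tested were higher and 15.4% lower. The median change of the 9 was 0.46 against 0.63 for all genes, so values are also given relative to that shift. *C5ar1* was 1.88 higher (SE 0.27, limma adjusted p = 6.42e-05; 1.25 relative to all genes), with all 6 old mice, at 1.46 to 3.34, above all 6 young mice, a pattern that 37.4% of all genes shared. *C3* was 1.21 higher (SE 0.31, limma adjusted p = 0.00310; 0.59 relative) with overlapping groups, since young replicate 5 at 7.38 stood inside the old range. *C1qb* was lower, at -1.94 (SE 0.46, limma adjusted p = 0.00183; -2.57 relative), and 5 of 6 old mice lay below all young mice while old replicate 3, at 4.70, lay among them.

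*C1qa* and *C1qc* had nearly the same means in both ages, differing by -0.11 (SE 1.202) and -0.18 (SE 1.14), within a spread that ran from under 1 to over 4 in each age. In young mice replicates 4 and 5 were high and in old mice replicates 1 and 6 were low in all 3 C1q chains. *C3ar1* differed by 1.43 (SE 0.45, exact permutation p = 0.0152) and did not pass, since its unadjusted limma p was above the threshold. Of the marker lists, 8 of 12 hepatocyte markers were lower and 1 (*Hp*) was higher in old mice, and 9 of 11 blood monocyte and 9 of 12 neutrophil markers were higher. Of 14 tissue macrophage markers 4 were higher and 0 lower (median 0.49), where 48.4% of all genes were higher and 15.4% lower. Their part in these differences was not tested. Scaling matters here: with the array median 75.8% of the genes that passed were higher in old mice, and with the 75th percentile, quantile normalisation, the median of probes detected on every array and the table of the authors this was 28.9%, 44.8%, 24.8% and 17.2%. *C3* did not pass under any of those 4 (differences of 0.48 to 0.69), whereas *C1qb* and *C5ar1* passed under all 4. With normexp background correction 0 of all genes passed.

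Between irradiated old and young mice, 0 of the 9 complement genes passed, where 1.4% of all genes were higher and 0.595% lower in old mice, and 3802 genes had an unadjusted p under 0.05. This comparison shares its mice with the comparisons after irradiation. *C1qc* (-3.16, SE 1.09), *C4b* (-3.08, SE 1.25) and *C1qa* (-2.99, SE 1.07) had the largest estimates, with limma adjusted p of 0.126, 0.177 and 0.135. In each, old irradiated replicates 1, 4 and 6 lay below all young irradiated mice, and replicates 2, 3 and 5 lay among them except for *C1qa* in replicate 2 (5.88, under the lowest young mouse at 5.97). Of 14 tissue macrophage markers 0 were higher and 1 was lower in old mice (median -1.84, 5 of 14 above 0). Of 12 neutrophil markers 0 passed (median 1.23, 12 of 12 above 0), and the median of all genes was 0.20. The part of these markers in the differences was not tested. Without old irradiated replicates 4 and 6, the lowest old irradiated arrays for *C5ar1*, 1 complement gene passed, *C5ar1*, at 1.63 higher in old mice (limma adjusted p = 0.00209), where 20.2% of all genes were higher and 8.15% lower. Leaving out the 6 arrays high in hepatocyte markers takes away the old mice that lay among the young ones and keeps the dim old replicates 4 and 6, which widens these gaps by construction, so nothing is read from that setting here.

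In order of group means, 4 of the genes ran as follows. The mean level of *C1qa* was 2.19 ± 2.15 in old unirradiated, 2.31 ± 2.66 in young unirradiated, 4.00 ± 2.89 in old irradiated and 6.99 ± 0.79 in young irradiated mice (SD, n = 6 each), and no neighbours in this order differ beyond their spread. *C1qb* ran from 3.15 ± 1.09 in old unirradiated over 5.09 ± 0.68 in young unirradiated and 5.80 ± 1.40 in old irradiated to 7.34 ± 0.53 in young irradiated mice, where the middle groups overlap and the old and young irradiated mice did not pass the test. *C3* ran from 6.12 ± 0.63 in young unirradiated over 7.33 ± 0.56 in old unirradiated and 8.22 ± 2.88 in old irradiated to 8.61 ± 2.78 in young irradiated mice, where the last 3 groups do not differ beyond their spread. *C5ar1* was 0.41 ± 0.31 in young unirradiated mice, and the other groups, at 2.29 ± 0.66, 2.65 ± 0.27 and 3.22 ± 1.70, overlap.

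The C1q chains and the plasma components *C3*, *C4b* and *Cfb* can be set side by side by their means, each relative to the median of young unirradiated mice. The C1q chains were at 3.53 to 5.40 in young irradiated and at -0.65 to 4.91 in old irradiated mice. The plasma components were at 2.36 to 6.54 and at -0.64 to 5.87. In young irradiated replicates 1, 3 and 6, with hepatocyte markers between -1.35 and -0.57, the C1q chains were at 3.53, 4.42 and 3.91 and the plasma components at 2.36, 3.41 and 2.47. That mean is carried by *C4b* and *Cfb*, which lay above the unirradiated range in these arrays, while *C3* differed from unirradiated mice by 0.02 on average. In the 3 arrays high in hepatocyte markers the C1q chains were at 5.10, 5.03 and 5.40 and the plasma components at 5.56, 6.54 and 5.75.

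Across all 24 arrays, which mix 4 groups, Pearson correlations with the mean macrophage level were 0.92 for *C1qa*, 0.80 for *C1qb*, 0.93 for *C1qc*, 0.77 for *C3*, 0.87 for *C4b*, 0.96 for *Cfb* and 0.89 for *Cfp*. With the hepatocyte level they were 0.69, 0.75, 0.70, 0.76, 0.75, 0.82 and 0.61 in the same order. On deviations from the 4 group means, *C3* had 0.87 with hepatocyte and 0.79 with macrophage markers, *C1qa* had 0.65 and 0.87, *C4b* had 0.69 and 0.80, and *Cfb* had 0.85 and 0.93. The Spearman correlation of *C3* over the 24 arrays was 0.351 with hepatocyte and 0.604 with macrophage markers, so *C3* is not nearer to either list by every measure. *C5ar1* was nearest to the neutrophil list (0.80 over the 24 arrays and 0.66 within groups), and to the blood monocyte list within groups (0.83). *C3ar1* had 0.65 with macrophage markers over the 24 arrays and 0.23 within groups. It had -0.08 with blood monocyte and 0.39 with neutrophil markers over the 24 arrays, and -0.51 and -0.45 within groups. All these values are descriptions over arrays that share the irradiated and old groups, and both marker lists were highest of their group in the same irradiated arrays, young replicates 2, 4 and 5 and old replicates 2, 3 and 5.

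**Figure D4:**
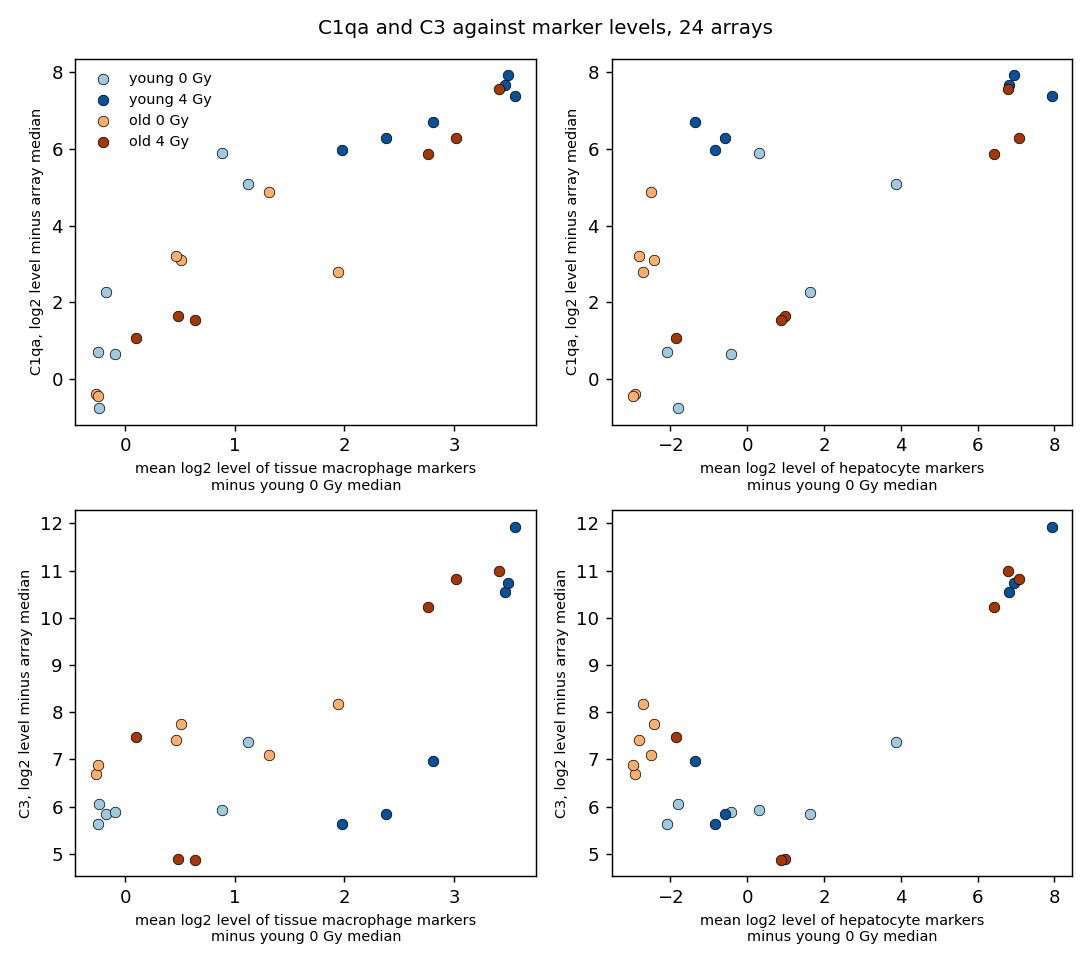
Log2 level of *C1qa* (top) and *C3* (bottom) relative to the array median, against the mean level of tissue macrophage markers (left) and hepatocyte markers (right) relative to young unirradiated mice, 1 point per array, coloured by group. The 3 young irradiated arrays with low hepatocyte markers have *C1qa* at 5.97 to 6.71 and *C3* at 5.63 to 6.97.

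Genes whose levels followed the members most closely were ranked by Pearson correlation over the 24 arrays, among 18706 genes. For the mean of the C1q chains they were *Fcna* (0.985), *Ednrb* (0.982), *Cd5l* (0.980), *Fabp7* (0.972) and *Wtip* (0.970). *C1qa* and *C1qc* correlated at 0.994 with each other, and *C1qb* correlated at 0.845 with *C1qa* and was nearest to *Etv1* (0.961) and *Timd4* (0.957). For *C3* the nearest were *Ropn1l* (0.982), *Rnase4* (0.980) and *Ttyh2* (0.978), for *C4b* *Garnl3*, *Tgfb2* and *Prg4* (0.986 to 0.988) and for *Cfb* *Gm4951*, *Sult1a1* and *Hal* (0.975 to 0.988). *Cfp* was nearest to *Timp2* (0.978), *C3ar1* to *Agtrap* (0.934) and *Selp* (0.933), and *C5ar1* to *Dhrs7* (0.984) and *Pilra* (0.984). *C4b* correlated at 0.967 with *C1qc* and at 0.640 with *C3*.

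Beyond the 9 genes, 44 of 45 other complement genes on a list by role were on the arrays and 28 were tested. In young irradiated mice 11 rose and 3 fell (median change 1.48), where 14.3% of all genes rose and 21.1% fell. In old irradiated mice 10 rose and 2 fell (median 1.51), where 7.49% rose and 17.4% fell. With normexp correction 6 rose and 2 fell in young mice, where 787 of all genes rose and 50 fell. In old mice 0 rose and 0 fell with it, where 4 of all genes rose and 4 fell. The old counts were 17 and 4 with array weights, whose share of all genes is given above. They were 6 and 2 with very similar arrays averaged, whose share is not given. The list moved with the hepatocyte markers: its mean level over 44 genes was 3.60, 4.12 and 3.75 in young irradiated replicates 2, 4 and 5 and 0.09, 0.82 and 0.59 in replicates 1, 3 and 6, and it was 3.11, 3.82 and 3.71 in old irradiated replicates 2, 3 and 5 and -0.19, 0.46 and 0.66 in replicates 1, 4 and 6. Without the 6 arrays high in hepatocyte markers 8 rose and 3 fell in young mice (median 0.35), where 14.3% of all genes rose and 18.6% fell, and 7 rose and 4 fell in old mice (median 0.23), where 15.8% of all genes rose and 24.4% fell. When old irradiated replicates 4 and 6 were left out, 13 rose and 3 fell in old mice, where 11.7% of all genes rose and 22.7% fell. In the comparison of unirradiated ages 9 were higher and 4 lower in old mice, where 48.4% of all genes were higher and 15.4% lower, but this count turned over with scaling. It was 1 higher and 9 lower with the 75th percentile, 2 and 5 with quantile normalisation and 1 and 9 with the median of probes detected on every array. It was 1 and 5 in the table of the authors and 0 and 0 with normexp correction. The calls over all genes moved as well, from 8620 higher and 2745 lower. They were 1684 and 4143, 2711 and 3339, 1410 and 4269, 763 and 3685, and 0 and 0 in the same order. Between irradiated ages 1 was higher (1.4% of all genes), *Cd93*, which encodes a receptor found on myeloid cells (1.27, limma adjusted p = 0.0325), and it did not pass under any of those 5 settings.

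Among the receptors and recognition proteins that rose in young mice were *Vsig4*, a complement receptor of macrophages, *Fcna*, a ficolin of the lectin pathway (4.69), *Itgb2* and *Itgam*, the chains of complement receptor 3 (1.43 and 1.18), *C5ar2* (1.33) and *Cd93* (1.52). *C1ra*, a protease of C1, also rose. *Vsig4*, *Fcna* and *C1ra* were well above background in 3, 4 and 3 of 6 young unirradiated mice and in 6 of 6 irradiated ones, so the size for *Fcna* rests in part on signals near background, as for *C3ar1*, and none is given for the others with fewer mice detected. Of these 3, 0 passed without the 3 arrays high in hepatocyte markers (limma adjusted p = 0.0181, 0.0177 and 0.0438). *Clu*, which encodes the soluble regulator clusterin, rose by 1.84. *Cd55*, which speeds decay of convertases on cells, fell by 3.15, its copy *Cd55b* fell by 1.78 and *Cr2*, a receptor of B cells, fell by 2.64.

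In old irradiated mice *Cd55* fell by 4.199 and *Cr2* fell by 3.74, with *Clu* (1.64), *Cd93* (1.60), *Itgb2* (0.88), *Cd59a* (1.94) and *Serping1* (3.40) rising. *Hc*, which encodes C5, and *Mbl2*, a liver lectin, were well above background in 0 of 6 old unirradiated mice and in 5 of 6 and 4 of 6 old irradiated mice, where they were higher. Their irradiated levels spread from -1.54 to 7.46 for *Hc* and from -2.44 to 8.75 for *Mbl2*, so no fold is given. *Masp1*, *C6* and *C1rb* were also higher and were well above background in 0 of 6 old unirradiated mice, but in irradiated mice in only 3, 3 and 2 of 6. Without replicates 2, 3 and 5, *Cd55*, *Cr2*, *Clu*, *Cd93*, *Cd59a*, *Serping1* and *Masp1* passed in the same direction and *Itgb2*, *Hc*, *Mbl2*, *C6* and *C1rb* did not. For *Masp1*, with 0 of 6 unirradiated mice well above background, this rests on signals near background and nothing is read from it. In unirradiated old mice *C5ar2* was 2.00 higher than in young mice without overlap, a pattern of 37.4% of all genes, and it passed under the other 3 scalings and in the table of the authors, at 1.43 to 1.51. *Cd93*, *Itgb2*, *Clu* and *Cd55b* passed with the array median and under 0 of those 4, and *Cd46* under 1 of them. *Serping1*, the inhibitor of C1, was lower (-2.72), and *Hc* was lower and well above background in 0 of 6 old and 5 of 6 young mice; both passed under all 4. *Fcna* and *Vsig4* did not pass in old mice (limma adjusted p = 0.367 and 0.458), and their test of the difference between the ages did not pass either (limma adjusted p = 0.270 and 0.271).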

How the data were processed

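Blood RNA of 24 mice was measured, 6 in each of 4 groups. The authors deposited the intensity of each spot, made with Agilent Feature Extraction 12.0.2 (version from the submitters' processing notes) and corrected for background, and a table of log2 values that they had filtered and normalised. The methods name median normalisation; the deposited log2 columns have medians of 5.77 to 6.73, and over which probes the median was taken is not known.

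Intensities were log2 transformed, each array was centred on the median of its 43020 non-control spots, and probes were dropped when 25% or more of the arrays had them non-uniform or dim. Probes had to differ 1.5-fold from their own median in 20% of the arrays or more, and the probe with the highest mean represented each gene, which left 17802 genes. That order of the filter was settled after both orders had been tried. The order kept gave the gene count of earlier results on these data and is also the order that the methods give. Filtering per gene afterwards is an added alternative and changed no count of the complement components and receptors. Of the other complement genes it left 27 tested in place of 28, and 10 rose in young mice in place of 11. Groups were compared with limma 3.58.1 in R 4.3.3, two-sided, on the 12 arrays of a comparison or on 24 for the interaction. The number of arrays limits the precision.

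The members and lists were chosen with earlier results of these data known. Named were the 9 members, per role the 4 other complement genes with the highest mean level and those that passed without overlap, the 3 genes of strongest mean signal in each marker list read, and the nearest genes by correlation; not every gene chosen this way is printed. *Alb*, *Ahsg*, *Ttr*, *Cd163*, *Tat*, *Siglec1*, *Spic* and the hepatocyte markers detected in all arrays were named after their values were seen. Alternatives were other scalings, background corrections, filters, tests and blocks, the authors' table and leaving out each array, and after seeing the data the 5 added ones: without old irradiated replicates 4 and 6, without the 6 arrays high in hepatocyte markers, also without young unirradiated replicate 5, very similar arrays averaged, and the other order of the filter.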

Additional observations from a re-analysis of the deposited data

Results flagged for a closer look

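In 36 groups of 6 values (9 complement genes in 4 groups), 1 value stood far from the others. If chance gives about 1 in 20 such groups, 1 in 36 is no more than that, so nothing is read from the flag itself. *C3* in young unirradiated replicate 5 was at a log2 level of 7.38, the next highest mouse was at 6.06, and this gap is 0.752 of the whole range of the group. The same array had the highest hepatocyte marker level of the unirradiated mice (3.88), which is given beside it and was not tested.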

How the results depend on the processing

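Counts of complement genes passing after irradiation of young mice were 8 when any of the 12 arrays was left out. They were 8 under each scaling, background, filter, test and block setting except slide as a random block, which gave 9 with *C3* (2.77). That block also called more of the other complement genes, with 16 rising in place of 11. Its share of all genes is not given, so nothing is read from the 9. Shares of all genes are also not given for most settings with 8, so the steady count is not read as particular to these genes. The count was 4 without the 6 irradiated arrays high in hepatocyte markers, a setting with fewer mice. The old count of 2 became 0 with normexp correction, 8 with array weights, 6 without old irradiated replicates 4 and 6, 1 without the 6 arrays and 1 without these and young unirradiated replicate 5. Between irradiated ages the count of 0 became 1 with array weights, 1 without old irradiated replicates 4 and 6, 3 without the 6 arrays and 3 without the 7. The share of all genes passing there is not given for array weights or without the 6 or the 7 arrays. So nothing is read from those counts. Between unirradiated ages the count of 3 became 0 with normexp correction, and was 2 to 4 when 1 array was left out. The interaction count of 0 became 1 without the 6 arrays and 3 without the 7. Leaving out 1 array gave 2 to 2 for old mice and 0 to 0 for irradiated ages and the interaction. Replicate numbers do not pair mice, and correlations of same-number pairs ran from -0.60 to 0.58, so that not all were above 0.1. With them as a block the counts were 8 in young mice, 2 in old mice, 4 between unirradiated ages, 0 between irradiated ages and 0 for the interaction. The share of all genes is not given for this block or for most settings without 1 array, so nothing is read from those counts.

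Single genes changed direction as follows, and the cause was not tested. Without the 6 arrays, and equally without the 7, values in old mice were -0.78 for *C1qa*, -0.67 for *C1qc*, -1.59 for *C3*, -0.52 for *C4b*, -0.73 for *Cfb* and -0.72 for *Cfp*, and *C5ar1* between irradiated ages was -0.29. The *C1qb* interaction was -0.14 without the 6, -0.22 without the 7 and -0.24 with normexp. Between unirradiated ages *C1qa* was 0.44 without the 7, 0.061 with slide as a random block and 0.41 with very similar arrays averaged, *C1qc* was 0.42, 0.029 and 0.29, and *Cfb* was -0.063 with the 75th percentile, -0.10 with the median of probes detected on every array and -0.12 in the authors' table. With array weights the *C3* interaction was 0.52, *C3* between irradiated ages 1.68, *C3ar1* there -0.25 and *Cfb* there 0.19. Without old irradiated replicates 4 and 6 the *C3* interaction was 0.061, *C3* between irradiated ages 1.27 and *C3ar1* there -0.18. *C3* there was 0.015 with similar arrays averaged, and *C3ar1* -0.010 with the median of probes detected on every array and -0.083 with normexp. Leaving out 1 array gave -0.72 to 0.61 for *C1qa* and -0.80 to 0.48 for *C1qc* between unirradiated ages, and -0.99 to 0.28 for *C3* between irradiated ages.

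Scaling moved the median change of all genes in old mice from -0.25 to 0.28, and between unirradiated ages from 0.63 to -0.04. In young mice the 4 scalings gave -0.27 to -0.15, the authors' table -0.32 and normexp correction 0.21. Relative to that median, over the other 3 scalings, normexp correction and the authors' table, *C1qa* changed by 3.83 to 4.97 and *C5ar1* by 0.95 to 2.64 in young mice, and *C1qb* changed by 2.10 to 2.79 in old mice and *C3ar1* by 0.70 to 1.97. The share of passing genes that rose in old mice was 30.1% and became 48.0%, 36.2%, 53.5% and 52.0% with the 75th percentile, quantile, detected-probe median and authors' table, and between irradiated ages 70.2% became 25.4%, 44.3%, 29.8% and 15.9%. Normexp correction left 837 genes in young mice, of which 94.0% rose against 40.4%, 8 in old mice and 0 between unirradiated ages. The difference of *C3* between unirradiated ages did not pass without young unirradiated replicate 1 (1.11), without old unirradiated replicate 4 (1.13) or in 1 fit of all 24 arrays. The number of all genes passing between irradiated ages, 356, was 30 without young irradiated replicate 3 and 516 without old irradiated replicate 6. No slide holds both ages, so values within a slide could not be had between ages, and the random variance test was not run for the interaction. The exact permutation test gave p = 0.00866 for *C1qb* in old mice, and 0.00649 for *C1qb* and 0.00866 for *C3* between unirradiated ages; for the 8 genes in young mice p was 0.00216, the smallest that 924 splits allow. Dim signals, with array medians of 8.66 to 44.8, limit what can be seen of *C3ar1* and *C1qa* in young unirradiated mice.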

Other observations

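Other marker lists were read for the same arrays and are given as values. All 7 platelet markers rose after irradiation in young and in old mice (median changes 1.78 and 1.88). Of 10 B cell markers, 10 fell in young and 9 in old mice (medians -2.56 and -3.84), *Cr2* among them. Of 10 T cell markers 8 fell in young and 0 in old mice, of 7 erythroid markers 4 fell in young and 0 in old mice, and of 5 tested endothelial markers 3 and 4 rose. The erythroid list holds the globin genes *Hba-a1* and *Hbb-b1*, and the part of globin reduction in its levels was not tested. Of 12 neutrophil markers 0 passed in old mice after irradiation, and of 11 blood monocyte markers 1 rose and 2 fell there. Of all genes tested, 14.3% rose and 21.1% fell in young and 7.49% rose and 17.4% fell in old irradiated mice. The erythroid list was split in old irradiated mice, at -1.59 to -2.63 relative to young unirradiated mice in replicates 1, 2, 3 and 5 and at 1.91 and 1.95 in replicates 4 and 6, so the tests in old mice mix both sets. These differences between the ages were tested gene by gene, and 0 of these genes passed the interaction.

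Pairs of very similar arrays were young irradiated replicates 2 and 5 and old unirradiated replicates 1 and 6, with median absolute differences of 0.147 and 0.149 log2 units.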
